A study of Mus musculus with 2 samples.

Results

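The Sox genes of embryonic day 14.5 mouse midbrain described here are 10 transcription factor genes of the groups B, C and E of the Sox family, out of 21911 named protein-coding genes examined. They were listed by name, with no threshold on a measured value, although earlier results of these data were known when the list was made. Group B holds Sox1, Sox2 and Sox3 (subgroup B1) and Sox14 and Sox21 (subgroup B2), group C holds Sox4, Sox11 and Sox12, and group E holds Sox8 and Sox9. Open chromatin was mapped by DNase-seq, in which DNase I cuts accessible DNA and clusters of cuts are called as peaks. The midbrain was taken from embryos of the strain B6NCrl, males and females pooled, in 2 biological replicates. These are different biosamples that share 1 donor entry, so part of their spread may be technical. Both replicates belong to 1 group, so no condition was compared and no test was made.

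Sox proteins bind the minor groove of DNA through an HMG box and bend it, and members of a group act in overlapping ways. In the developing neural tube the B1 proteins keep cells as dividing progenitors, the B2 proteins oppose them, and the C proteins act in newly born neurons. Group E proteins act in neural stem cells and in the switch to making glia, and several Sox proteins bind DNA next to a partner such as a POU factor.

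A peak here is an interval of 150 bp with a value given by the authors, a whole number of at most 150. It was called shared when a peak of replicate 1 and a peak of replicate 2 overlapped by at least 1 bp. A promoter peak overlapped the 1000 bp either side of an annotated start of the gene. A distal peak was centred in the gene body or within 50 kb of it and over 1000 bp from every protein-coding start. Replicate 1 had 709519 peaks with a median value of 6, and replicate 2 had 267756 with a median of 51, on chromosomes 1 to 19, X and Y. The values are not on 1 scale and read depth is unknown, so a value is set beside its percentile rank among the peaks of its own replicate.

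The strongest shared promoter peak is printed for 6 of the genes. They include all of group C, whose values of these peaks were above those of the other genes in both replicates, in places only narrowly. Capitals mark, on either strand, the NF-Y motif CCAAT, the GC box GGGCGG and the POU octamer ATGCAAAT. Each line runs 5′ to 3′ on the strand of its gene, from the assembly GRCm38.p6 (mm10).
Sox2 promoter, chr3:34649816-34649965, plus strand: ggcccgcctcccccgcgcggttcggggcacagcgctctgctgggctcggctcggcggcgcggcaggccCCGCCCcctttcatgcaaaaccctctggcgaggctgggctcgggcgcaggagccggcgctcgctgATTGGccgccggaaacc
Sox3 promoter, chrX:60893436-60893585, minus strand: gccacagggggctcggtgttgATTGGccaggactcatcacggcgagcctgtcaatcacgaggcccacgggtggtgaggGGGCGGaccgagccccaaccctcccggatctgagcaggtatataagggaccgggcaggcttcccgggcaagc
Sox4 promoter, chr13:28953696-28953845, minus strand: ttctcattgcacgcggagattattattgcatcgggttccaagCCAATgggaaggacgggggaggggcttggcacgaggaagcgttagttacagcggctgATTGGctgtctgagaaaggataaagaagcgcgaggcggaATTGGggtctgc
Sox11 promoter, chr12:27342696-27342845, minus strand: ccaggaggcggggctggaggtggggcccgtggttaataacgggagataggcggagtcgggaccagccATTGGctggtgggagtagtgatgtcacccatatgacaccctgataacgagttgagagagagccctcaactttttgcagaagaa
Sox12 promoter, chr2:152398096-152398245, minus strand: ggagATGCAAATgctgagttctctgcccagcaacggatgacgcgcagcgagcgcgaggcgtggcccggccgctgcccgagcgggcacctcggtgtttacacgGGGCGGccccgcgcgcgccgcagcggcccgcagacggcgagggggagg
Sox9 promoter, chr11:112782076-112782225, plus strand: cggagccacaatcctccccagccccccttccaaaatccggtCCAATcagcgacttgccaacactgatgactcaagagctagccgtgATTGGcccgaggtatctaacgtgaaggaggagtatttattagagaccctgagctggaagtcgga

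The strongest shared distal peak is printed for 4 genes, as examples of strong accessible DNA away from protein-coding starts. The Sox2 interval lay near annotated starts of the noncoding transcripts Sox2ot, Mir1897 and RF01953. Here capitals mark the Sox core motifs ACAAAG and ACAATG, the E-box CAGCTG, the homeodomain motif TAATTA, the NFI motif and the POU octamer. The Sox2 and Sox4 intervals held none of these letters.
Sox1 distal, chr8:12430216-12430365, plus strand: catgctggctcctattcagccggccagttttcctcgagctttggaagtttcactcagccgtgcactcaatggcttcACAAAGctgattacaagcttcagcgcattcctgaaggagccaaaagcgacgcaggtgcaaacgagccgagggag
Sox2 distal, chr3:34639296-34639445, plus strand: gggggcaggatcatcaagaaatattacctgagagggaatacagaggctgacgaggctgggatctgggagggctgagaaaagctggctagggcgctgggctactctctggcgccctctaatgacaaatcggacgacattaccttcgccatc
Sox4 distal, chr13:28957916-28958065, minus strand: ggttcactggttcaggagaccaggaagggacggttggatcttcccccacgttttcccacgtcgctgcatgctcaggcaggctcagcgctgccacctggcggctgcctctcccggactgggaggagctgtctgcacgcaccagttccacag
Sox9 distal, chr11:112811236-112811385, plus strand: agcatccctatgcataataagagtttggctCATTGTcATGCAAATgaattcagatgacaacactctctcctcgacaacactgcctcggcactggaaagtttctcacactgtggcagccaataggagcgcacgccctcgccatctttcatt

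All 10 genes had a promoter peak in both replicates, and each had at least 1 that was shared. Over all named protein-coding genes 68.9% had a shared promoter peak, 75.8% had a promoter peak in replicate 1 and 72.4% in replicate 2. The promoters of the 10 genes are rich in CpG, with 111 to 231 CpG in the 2 kb around the 5′ end against a median of 61 over all genes. Of the 4002 genes with at least 111 CpG there, 99% had a shared promoter peak, and the count of 10 of 10 is close to this background. The strongest promoter peaks of the 10 genes had medians of 82.5 and 136 in replicates 1 and 2, against 91 and 137 over all open promoters.

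The group C genes had the strongest promoter peaks of the 10. Their values were 107 to 122 in replicate 1 and 143 to 147 in replicate 2, against at most 95 and at most 142 in the other 7 genes. The values did not overlap in either replicate, but in replicate 2 Sox4 with 143 lay next to Sox1 with 142. Among all open promoters, the mean ranks of Sox4, Sox11 and Sox12 lay at percentiles 76.9, 82.8 and 86.5. Only these 3 of the 10 genes lay at or above a mean rank of 99.1, the upper quartile of open promoters. As 25% of open promoters lay there, the count of 3 of 10 is close to this background. Just inside was Sox4 with a mean rank of 99.1, and just outside was Sox2 with 98.5.

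Sox4, which together with Sox11 activates genes of newly born neurons, had a promoter peak at chr13:28953696-28953845 with values of 122 and 143 in replicates 1 and 2. It covers the annotated start, with its centre 58 bp upstream. The mean percentile rank was 99.1, and 3 further shared promoter peaks lay 322, 802 and 982 bp downstream. Sox11, a single-exon gene of the same group, had 5 shared promoter peaks, the most of the 10 genes. The strongest, centred 197 bp upstream, had values of 116 and 145 and a mean rank of 99.3. The peaks 477 and 857 bp upstream followed with 97 and 137 and with 78 and 133, so the accessible DNA of Sox11 was not limited to its start. Sox12, which in mice overlaps in function with Sox4 and Sox11, had values of 107 and 147 at a peak centred 108 bp upstream, with a mean rank of 99.5. In replicate 1 its peak 828 bp upstream was slightly higher, with values of 109 and 140.

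In subgroup B1, whose proteins maintain neural progenitors, Sox1 and Sox2 resembled each other and Sox3 lay lower. Sox2, also a pluripotency factor, had values of 95 and 141 in replicates 1 and 2 at a peak centred 514 bp upstream of its start. Weaker shared peaks stood 306 and 606 bp downstream. Sox1 had a single shared promoter peak, centred 256 bp downstream of its start, with values of 81 and 142. A peak almost on the Sox1 start, 4 bp upstream, had a value of 134 in replicate 2 and was not called as a peak in replicate 1, where a hotspot covered it. Hotspots are the wider regions of enriched cutting that the authors called beside the peaks. Sox3, an X-linked gene that also acts in the pituitary and hypothalamus, had values of 45 and 107 at a peak centred 81 bp upstream, the lowest of the 10 in both replicates. Open promoters on chromosome X had medians of 70 and 125 over 489 genes, against 92 and 138 on the autosomes. The part of the X chromosome in the Sox3 value was not tested.

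In subgroup B2, Sox21, a repressor that promotes neuronal differentiation, had values of 75 and 132 at a peak centred 81 bp upstream. Sox14, a gene of subsets of midbrain and spinal cord neurons, had lower values of 51 and 118 at a peak centred 101 bp upstream. Both had 3 shared promoter peaks. In group E, Sox9, which acts in neural stem cells and at the onset of gliogenesis, had values of 84 and 132 at a peak centred 73 bp upstream. Sox8, which overlaps with the other group E genes in oligodendrocyte development, had values of 55 and 111 at a peak centred 85 bp upstream. Within each of B2 and E, 1 gene was thus higher than the other in both replicates. In such tissue, fewer cells with an open promoter and less accessibility per cell cannot be told apart.

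The order by mean rank was Sox12, Sox11, Sox4, Sox2, Sox1, Sox9, Sox21, Sox14, Sox8 and Sox3. Neighbours in this order were close, and some changed places between the replicates: Sox4 was above Sox11 and Sox12 in replicate 1 and below both in replicate 2, and Sox2 was above Sox1 in replicate 1 only. Sox9 and Sox21 had the same value, 132, in replicate 2.

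**Figure D1:**
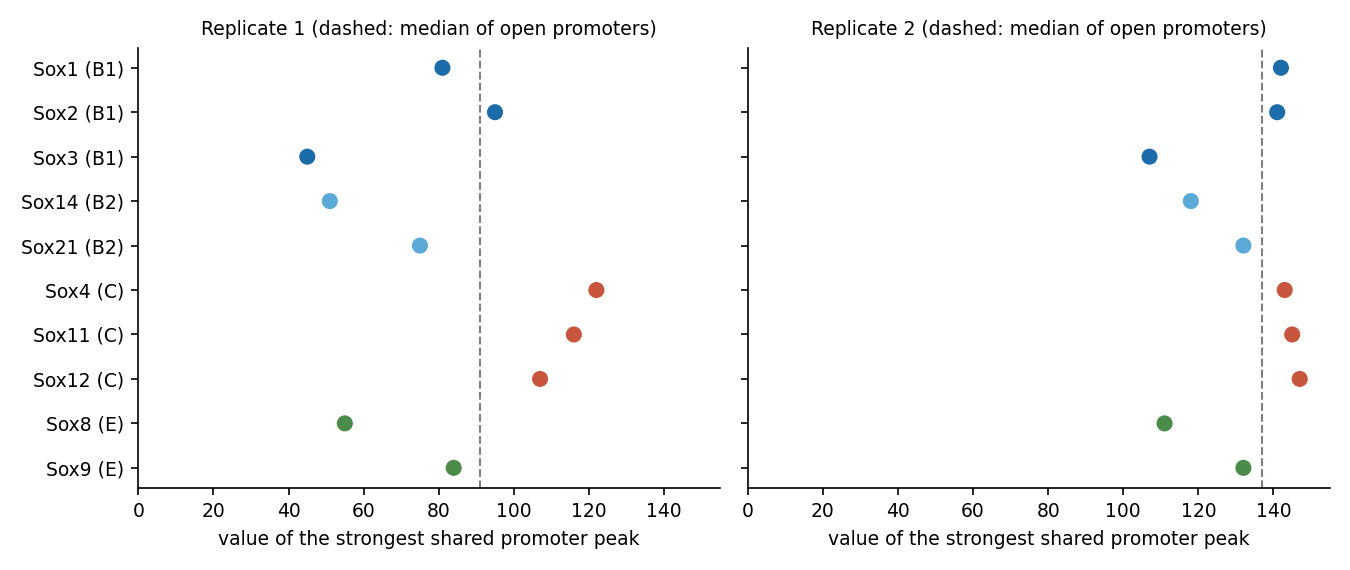
Value of the strongest shared promoter peak (horizontal axis, the authors' signal value, no unit) of each Sox gene (rows, with its group) in replicate 1 (left) and replicate 2 (right). The dashed line is the median of all open promoters, 91 in replicate 1 and 137 in replicate 2, and the 3 group C genes lie to the right of the other 7 genes in both panels.

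Starts of other transcripts share some of these promoter peaks, and the peaks cannot be assigned to 1 of the partners. Such a start stood near Sox3 (the antisense transcript Gm14662), Sox8 (the antisense transcript 2810468N07Rik), Sox9 (the noncoding transcript BC006965), Sox21 (the lincRNA Gm4675) and Sox1 (the annotated miRNA Gm25239). The genes of group C, Sox2 and Sox14 had no such partner in the annotation.

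Most of the 10 genes had several promoter peaks. Of the 10, 8 had at least 3 shared promoter peaks, against 39.6% of open promoters. The exceptions were Sox8 with 2 and Sox1 with 1. The part of the CpG richness of these promoters, given above, in this count was not tested. The 10 promoters held 30 shared peaks, 3 peaks of replicate 1 alone and 8 of replicate 2 alone. Of those 8, 6 lay in a replicate 1 hotspot.

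The hotspots over the promoters were wide at several of the genes. In replicate 2 the hotspot over the strongest promoter peak reached the upper quartile of width at 8 of the 10 genes, against 25% of open promoters. In replicate 1 it did so at 5 of the 10, against 24.7%. Sox21 had the widest in replicate 2, 8786 bp, and 4221 bp in replicate 1, in a gene 3799 bp long. Sox4 had the widest in replicate 1, 5037 bp, and 2729 bp in replicate 2, and it was the only 1 of the 10 whose hotspot was narrower in replicate 2. The hotspot over the Sox2 promoter measured 2243 bp in replicate 1 and 6733 bp in replicate 2. The group C genes had widths of at least 2729 bp in both replicates, whereas the group E genes Sox8 and Sox9 had at most 1363 bp. Medians over open promoters were 940 bp in replicate 1 and 1489 bp in replicate 2. The part of CpG richness in the widths was not tested.

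**Figure D2:**
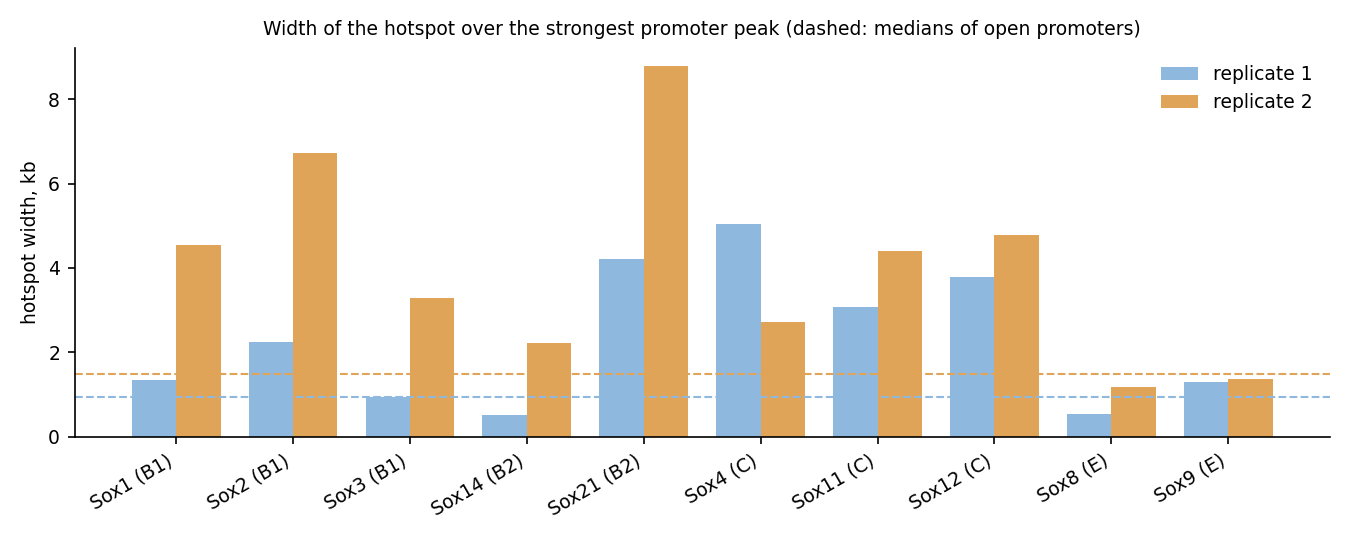
Width in kb (vertical axis) of the hotspot that holds the strongest shared promoter peak of each Sox gene (horizontal axis), in replicate 1 (blue) and replicate 2 (orange). Dashed lines are the medians of open promoters, 940 bp and 1489 bp, and Sox21 has the widest hotspot in replicate 2, 8786 bp.

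Around the genes lay 233 shared distal peaks, with a median of 19.5 per gene against 7 over all protein-coding genes. Of the 10 genes, 9 had at least 12, the upper quartile over all genes, which 25.8% of all genes reached. Sox3 alone lay below, with 7, and the nearest gene above the limit was Sox9 with 13. Genes as rich in CpG had a median of 10 and an upper quartile of 16, which 7 of the 10 genes exceeded. The 10 genes are short, from 2057 to 8311 bp against a median of 17433 bp over all genes, so their windows were not enlarged by long gene bodies.

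Sox2 had 51 shared distal peaks, the most of the 10 and more than 99% of all genes had. Replicate 1 had 101 there and replicate 2 had 64. They formed a run of 20 peaks from 12774 to 1414 bp upstream and a run of 22 from 1666 to 17626 bp downstream, with no gap over 2 kb between the centres within a run. Of the 51, 50 lay within Sox2ot, the long noncoding transcript that overlaps Sox2 on the same strand. The strongest lay 11034 bp upstream in an intron of Sox2ot, with values of 78 and 121. Sox2 was thus surrounded on both sides rather than on 1.

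Sox1 had 32 shared distal peaks, from 67 in replicate 1 and 58 in replicate 2, and 23 of the 32 lay within its overlapping transcript Sox1ot. They fell into runs of 7 peaks on each side within 7 kb of the start and a separate run of 6 from 32776 to 37476 bp downstream. The strongest, 34996 bp downstream in an exon of Sox1ot, had values of 71 and 119. Sox3 had 7, from 17 in replicate 1 and 16 in replicate 2, none farther than 4279 bp from the start. Its strongest, 1119 bp downstream within its exon, had values of 25 and 80. The median over X-linked genes was 3 and over autosomal genes 7, so Sox3 had more than a typical gene of its chromosome and fewer than the other 9 Sox genes. Several of its peaks lay close to the 1000 bp limit, and with distal set at over 2 kb Sox3 had 3.

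In subgroup B2 the distal peaks lay mostly on the 3′ side. Sox21 had 32, from 52 in replicate 1 and 41 in replicate 2, of which 24 lay downstream of the gene. A run of 19 reached from 1839 to 10899 bp downstream of the start, and a second run of 7 stood 39759 to 43879 bp downstream. The strongest, at 10899 bp, had values of 67 and 123. Sox14 had 18, from 43 in replicate 1 and 22 in replicate 2, of which 14 lay downstream. A run of 12 peaks, the first of them in the gene body, reached from 1699 to 8839 bp downstream of the start, and the strongest, 29139 bp downstream, had values of 72 and 114. Both genes of B2 thus had most of their distal peaks downstream.

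In group C, Sox11 had 28 shared distal peaks, from 98 in replicate 1 and 36 in replicate 2, of which 12 lay in its own exon, and a run of 14 reached from 1343 to 8723 bp downstream of the start. Its strongest, 3263 bp downstream in the exon, had values of 58 and 121. Sox4 had 21, from 97 in replicate 1 and 23 in replicate 2, and its strongest, 4278 bp upstream, had values of 99 and 138, above the strongest promoter peaks of Sox3, Sox14, Sox21, Sox8 and Sox9 in both replicates. Sox12 had 14, from 39 in replicate 1 and 20 in replicate 2, of which 5 had the Sox12 start as their nearest coding start. It shares its window with Zcchc3, 6820408C15Rik, Nrsn2 and Trib3, and peaks there cannot be assigned to 1 of them. Its strongest distal peak lay 1712 bp downstream in its own exon, with values of 112 and 145.

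In group E, Sox8 had 17 shared distal peaks, from 26 in replicate 1 and 22 in replicate 2. Sox9 had 13, from 49 in replicate 1 and 24 in replicate 2. The strongest around Sox8 lay 47925 bp upstream in an intron of the neighbour Lmf1, with values of 54 and 124, and 9 of the 17 had Sox8 as their nearest coding start. The strongest around Sox9, 29087 bp downstream, had values of 81 and 132, close to its promoter peak with 84 and 132. Regulatory DNA of Sox9 is known to reach much farther than the window used here, so its count covers only the nearest part. Over all 10 genes, 215 of the 233 peaks had the Sox gene as their nearest coding start.

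**Figure D3:**
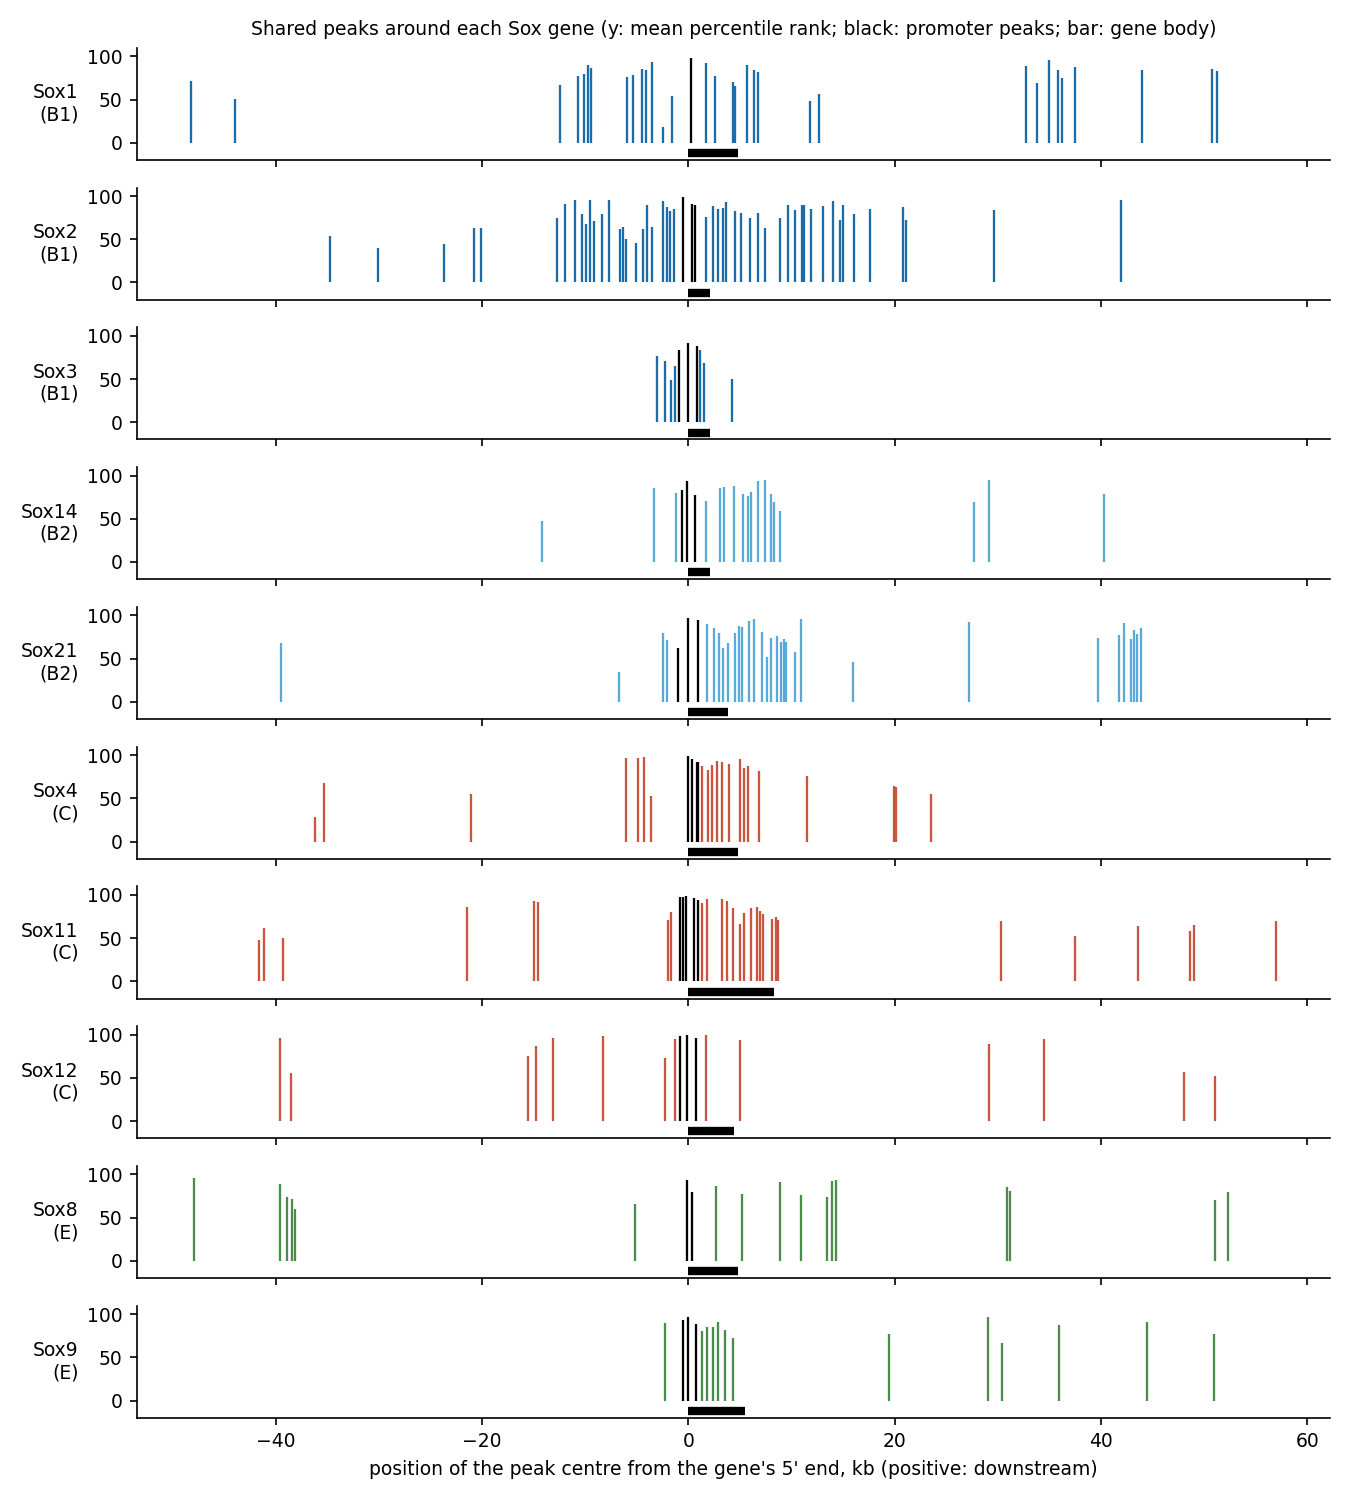
Shared peaks around each Sox gene, by the position of the peak centre from the gene's 5′ end in kb (horizontal axis, positive downstream) and the mean percentile rank over both replicates (vertical axis). Coloured lines are distal peaks, black lines promoter peaks and bars gene bodies; Sox2 has 51 distal peaks on both sides, while 24 of 32 at Sox21 and 14 of 18 at Sox14 lie downstream of the gene.

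**Figure D4:**
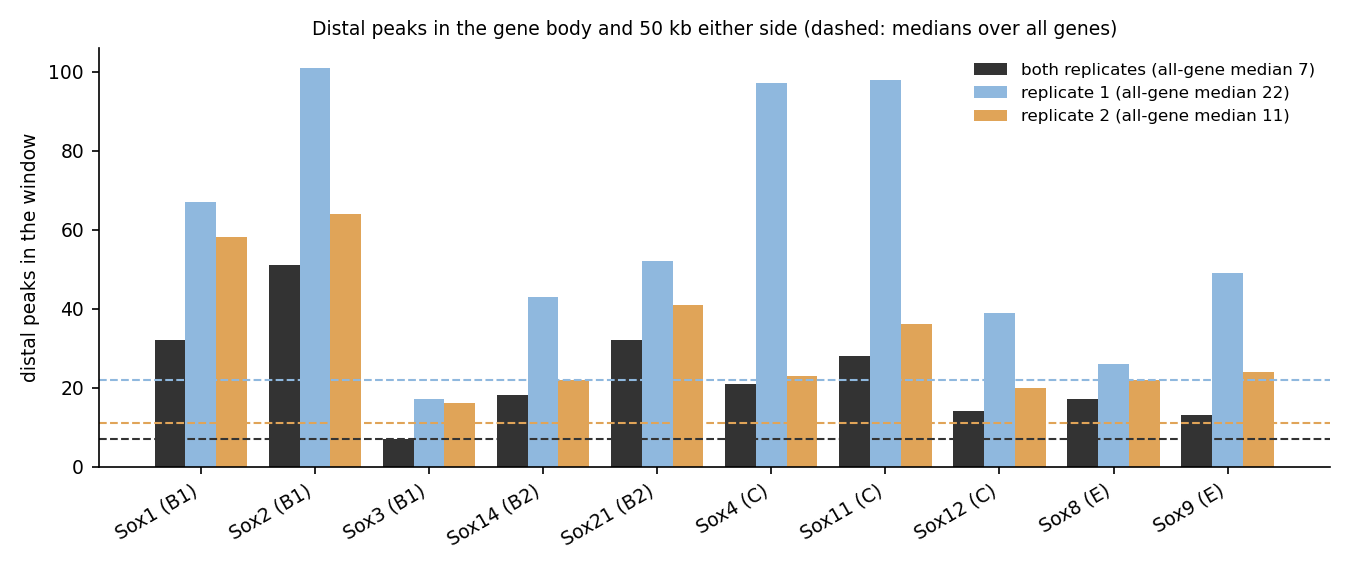
Number of distal peaks in the window of the gene and its 50 kb flanks (vertical axis) of each Sox gene (horizontal axis), shared (black), in replicate 1 (blue) and in replicate 2 (orange). Dashed lines are the medians over all genes, 7, 22 and 11, and all genes except Sox3 exceed the shared median.

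The distal peaks of the Sox genes lay more often in exons than distal peaks in general. Exons held 58 of the 233, or 24.9%, against 6.8% of all 140437 shared distal peaks, introns held 34.8% against 48.8%, and DNA outside genes held 40.3% against 44.4%. Annotated exons of noncoding transcripts count here, such as those of Sox1ot and Sox2ot, and 131 of the 233 lay within 10 kb of a 5′ end. The median GC content was 52% around the Sox genes and 49.3% over all distal peaks. The median values were 21 and 76 in replicates 1 and 2, against 18 and 60. A mean rank of at least 90 was reached by 48 of the 233, or 20.6%, against 14.3%. Of the 14 peaks at Sox12, 7 did so, as did 7 of 21 at Sox4, whereas none of the 7 at Sox3 did.

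The replicates gave different numbers of distal peaks around the Sox genes. The ratio of replicate 2 to replicate 1 distal peaks was 0.338 summed over group C, 0.718 over group B and 0.613 over group E, against 0.343 over all distal peaks. Over the 12119 genes with at least 10 distal peaks in each replicate, the ratio per gene had a median of 0.531 and quartiles of 0.333 and 0.786. This median per gene is not the same measure as a ratio of sums. As a ratio of sums, group C lay close to all distal peaks, and groups B and E lay above. Within group C, Sox4 had 97 peaks in replicate 1 and 23 in replicate 2 (ratio 0.237), and Sox11 had 98 and 36 (0.367). Sox12, with 39 and 20 (0.513), lay close to the median over genes, as did Sox14 (0.512) and Sox9 (0.49). Sox3 had the highest ratio of the 10, 0.941, with 17 and 16. Replicate 1 has the longer peak list. In a comparison added after the values were seen, it was kept to its peaks with a value of at least 7, the highest limit that leaves no fewer peaks than replicate 2 has. Because 44324 peaks tie at that value, 308155 peaks were kept against 267756 in replicate 2, so the lists were close in number but not equal. The ratios became 0.832 for group C, 0.971 for group B and 0.836 for group E, against 0.851 over all distal peaks. The same ratio, with all peaks, ran over the 9 marker lists of other genes from 0.227 for neurons and 0.255 for hindbrain to 0.753 for midbrain regulators. It was 0.368 for progenitors, 0.415 for microglia, 0.468 for erythroid cells, 0.537 for mesenchyme and meninges, 0.551 for forebrain and 0.569 for endothelium. Single genes of a list varied widely, from 0.143 to 0.812 among the neuron genes and from 0.365 to 1.6 among the midbrain genes. Map2 alone gave 280 of the 462 replicate 1 peaks of the neuron list and 40 of its 105 replicate 2 peaks. The low neuron ratio thus rests largely on 1 gene. The part of cell makeup in these ratios was not tested.

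Of the 326 distal peaks that replicate 2 gave around the 10 genes, 233, or 71.5% with a 95% exact binomial interval of 66.2 to 76.3, had a partner in replicate 1, against 61.9% of all replicate 2 distal peaks. The interval covers counting error only. Sox4 had the highest share, 91.3% (72 to 98.9), and Sox2 had 79.7% (67.8 to 88.7). In the other direction Sox4 had the lowest share of the 10, as 21 of its 97 replicate 1 peaks, or 21.6%, had a partner in replicate 2. The part of the denser replicate 1 list in its share for replicate 2 was not tested. Of the shares of replicate 2 peaks, Sox3 had the lowest, 43.8% (19.8 to 70.1), with Sox9 at 54.2% (32.8 to 74.4) and Sox1 at 55.2% (41.5 to 68.3). Most of the single genes' intervals overlap each other and include the share over all peaks; those of Sox2, Sox4 and Sox21 lie above it. Of the 93 replicate 2 peaks without a partner, 23 lay in a replicate 1 hotspot, and of the 349 of replicate 1 without a partner, 39 lay in a replicate 2 hotspot.

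**Figure D5:**
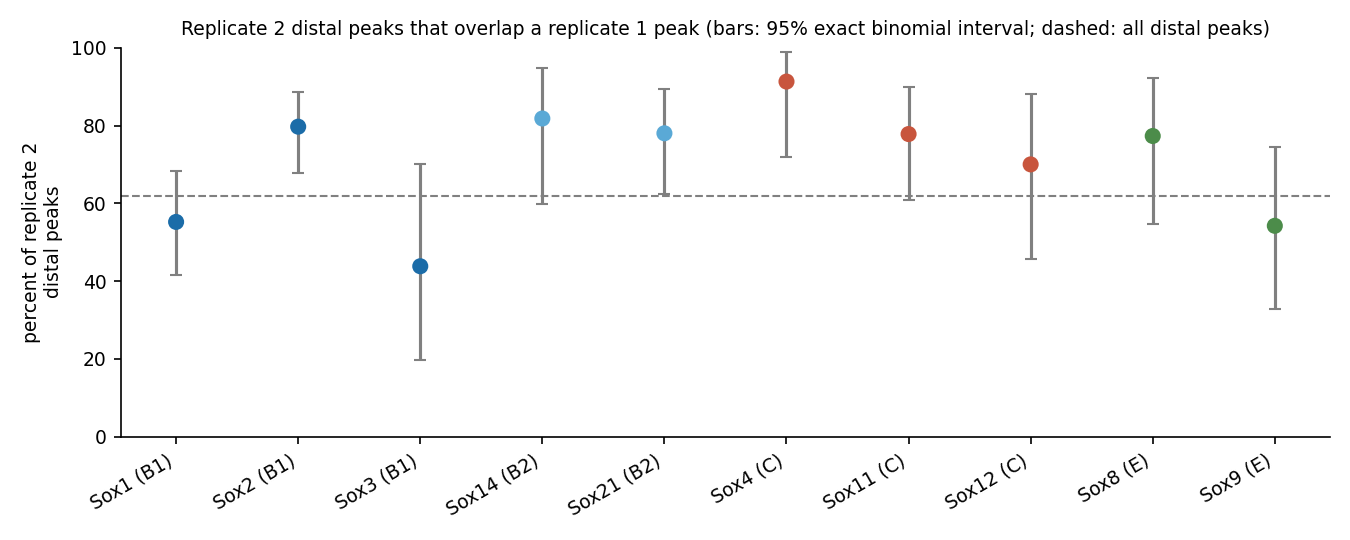
Percent of replicate 2 distal peaks that overlap a replicate 1 peak (vertical axis) around each Sox gene (horizontal axis), with 95% exact binomial intervals as bars. The dashed line is the share over all distal peaks, 61.9%, and the values run from 43.8% at Sox3 to 91.3% at Sox4.

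Motif matches were counted as exact letters on either strand, in the 150 bp of each peak, and a match is no proof of binding. In the strongest promoter peaks the NF-Y motif CCAAT, bound by a general activator of CpG-rich promoters, was found at 7 of the 10 genes against 28.6% of open promoters. In the peaks printed above it stands 3 times at Sox4, 1 as CCAAT and 2 as its complement ATTGG, and 2 times at Sox9. The GC box GGGCGG was found at 6 of the 10, against 54%. The POU octamer ATGCAAAT was found at Sox1 and Sox12, against 0.814% of open promoters. No Sox core motif stood in the 10 promoter peaks, against 8.79% of open promoters.

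In the distal peaks, a Sox core motif (ACAAAG or ACAATG) was found in 49 of 233, or 21% (exact binomial interval 16 to 26.8), against 23.1% of all shared distal peaks and 15.7% of windows 1 kb to either side of the Sox gene peaks. All 466 flanking windows were kept, also where they fell on a neighbouring peak, as at some peaks of Sox1 and Sox4. The flanking windows are thus not free of accessible DNA, here and for the motifs below. The share over all distal peaks lies within the interval around the Sox genes. Among single genes it was 10 of 28 at Sox11, 10 of 32 at Sox1, 2 of 21 at Sox4 and 0 of 7 at Sox3. The E-box CAGCTG, bound by bHLH factors such as proneural proteins, was found in 14.2% (9.95 to 19.3), against 15.2% of all distal peaks and 5.15% of the flanking windows. The homeodomain motif TAATTA was found in 5.15%, against 5.75% and 5.15%. The GC box was found in 12.9% (8.86 to 17.9), and this interval does not include the 5.58% of all distal peaks or the 7.08% of the flanking windows. These intervals cover counting error only and treat the peaks as independent, although many lie in runs at the same gene. They are no test of the Sox genes as a set. The part of the higher GC content of these peaks, given above, was not tested. The NFI motif was in none of the 233 and in 0.208% of all.

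The POU octamer was found in 7 of the 233, or 3% (1.22 to 6.09), against 2.07% of all distal peaks and 0.429% of the flanking windows. Of these 7, 4 lay downstream of Sox9, at 19427, 29087, 30387 and 50947 bp, with 2 more at Sox1 and 1 at Sox8. The strongest Sox9 distal peak, printed above, has CATTGT, the complement strand of ACAATG, followed after 1 base by the octamer. That arrangement, searched after the sequence had been seen, occurs in 5 of the 140437 shared distal peaks, of which this is 1. It has the order of letters known from sites bound by Sox2 together with Oct4 or other POU factors in other cells, and binding here was not measured.

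The other 10 Sox genes give the range of the family in this tissue. Of these, 9 had a shared promoter peak, and Sry on the Y chromosome had no peak in either replicate. The group D genes, partners of the group E genes in glia and cartilage, had promoter values of 47 and 105 at Sox5, 58 and 129 at Sox6 and 69 and 125 at Sox13. Sox5 with 83 shared distal peaks and Sox6 with 72 had more than Sox2, in gene bodies of 953553 and 567925 bp. The group F genes of blood vessels were low, with 17 and 56 at Sox7, 21 and 72 at Sox17 and 14 and 66 at Sox18. Sox10, the group E gene of neural crest and oligodendrocytes, was also low, with 15 and 56 at its start, against 84 and 132 at Sox9 and 55 and 111 at Sox8. The highest promoter values among these genes were those of Sox30 of group H, 77 and 137, above those of Sox21, Sox14, Sox8 and Sox3. Sox15 of group G had 58 and 133, above those of Sox14, Sox8 and Sox3. The median of shared distal peaks was 19.5 in the 10 genes described and 8.5 in the other 10.

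The tissue label was set beside marker genes. All 8 midbrain genes (En1, En2, Otx2, Lmx1a, Lmx1b, Foxa2, Pax3 and Pax7), all 5 progenitor genes and all 5 neuron genes had open promoters, and none of the 4 hindbrain Hox genes did. Over all protein-coding genes 68.9% had a shared promoter peak, so an open promoter alone says little about the tissue. The midbrain genes had median values of 53.5 and 111 in replicates 1 and 2. Single genes of the lists overlapped: Lmx1a had 11 and 68 and Foxa2 19 and 72, against 77 and 137 at Emx2 of the forebrain list. The 3 forebrain genes also had open promoters, with median values of 25 and 97. Markers of other cell types in the tissue were partly open, 3 of 4 for endothelium (medians 15 and 65), 1 of 4 for microglia and 1 of 5 for erythroid cells. For mesenchyme and meninges 3 of 5 were open (medians 20 and 51), with 83 and 129 at Col1a1. The part of these cells in the Sox gene values was not tested.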

How the data were processed

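DNase-seq peaks and hotspots of 2 replicates were deposited per replicate; grouping and replicate numbers come from the labels, and coordinates are 1-based on mm10, per the labels. Aligner and peak caller: not given in the sources used here. The authors' signal value of a peak is a whole number, used only to describe, rank or filter peaks within its replicate. In the deposited hotspot lists the −log10 q value is capped at 100. Read depth is unknown.

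Sequence came from GRCm38.p6 and genes from GENCODE M21, where 59215 of 59255 start codons (99.9%) read ATG. Shared peaks were those overlapping by at least 1 bp, with the replicate 2 interval kept. The strongest promoter peak was that with the highest mean percentile rank over both replicates. Shares have 95% exact binomial (Clopper-Pearson) intervals, for counting error only. With 1 group, no test was made. Members, marker lists and motifs were chosen with earlier results of these data known. All 10 members, the other 10 Sox genes and neighbours with a start in a member's window were eligible to be named. Scripts were tested on simulated data. The tools were scipy 1.17.1, pandas 2.3.3, numpy 2.4.6 and matplotlib 3.10.9 under Python 3.11.15. Alternatives covered promoter and distal windows, the start used, the overlap, a minimum value, hotspots and each replicate alone.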

Additional observations from a re-analysis of the deposited data

How the results depend on the processing

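All 10 Sox genes kept a promoter peak under the 8 alternatives tried, and the share over all genes was 64.3% to 75.8%. The median of distal peaks per Sox gene was 15 to 19.5 under the alternatives that kept both replicates, except 31.5 with 100 kb either side, and 23.5 to 50.5 in 1 replicate alone. The all-gene median of 7 became 3 with 20 kb, 13 with 100 kb, 2 when only the nearest coding start counted, 4 with peaks at or above their replicate's median value, and 11 to 22 in 1 replicate alone. The number of Sox genes among the 25% of genes with the most was 9, and it ranged from 7 to 10 under the alternatives. Where it was 10, Sox3 was included. With distal set at over 2 kb Sox3 fell from percentile 51.9 of all genes to 29.5, and with 100 kb either side to 34.8. The share of replicate 2 distal peaks around the Sox genes found in both replicates was 71.5%. It was 58.3% when at least 50% of both peaks had to overlap and 81.2% with peaks at or above the median value. The share over all distal peaks was not computed at these 2 settings, so 61.9% is not their background. The share with a Sox core motif was 19% to 23.4%. With replicate 1 kept to its strongest peaks, ties included, chosen after seeing the data, the ratio of replicate 2 to replicate 1 distal peaks was 0.832 for group C (0.338 with all peaks) and 0.851 for all distal peaks (0.343). No paired analysis was possible because the 2 replicates form 1 group. Unknown read depth limits what the absence of a peak means.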
